A study of Mus musculus with 14 samples.

Results

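Alpha v integrins and the proteins that handle latent TGF-beta were followed through 6 genes, taken as a list of names with earlier results of these data known, of 30284 genes in the tables: Itgav, Itgb8, Itgb3 and Itgb5, which encode integrin chains, Lrrc32, which encodes the surface anchor GARP, and Furin, which encodes a protease. TGF-beta is made as a proprotein that furin cleaves in the secretory pathway, and the cleaved propeptide stays wrapped around the cytokine and keeps it latent. On regulatory T cells GARP holds this latent complex at the surface, and alpha v integrins bind an RGD motif in the propeptide, after which active TGF-beta can be released. Alpha v beta 8 is the alpha v integrin known for this release on T cells and dendritic cells, while beta 3 and beta 5 are other chains with which alpha v pairs.

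RNA was measured in Foxp3+YFP+ regulatory T cells sorted from spleens of C57/B6 mice. The knockout-labelled units (KO) had the genotype Tln1fl/fl Foxp3cre/wt and the wild-type units (WT) had Tln1wt/wt Foxp3cre/wt, so both groups carried the Cre allele at Foxp3, which acts in Foxp3-expressing cells. Tln1 encodes talin-1, an adaptor that attaches to integrin beta tails inside the cell and turns the receptors on. The 14 samples formed 3 KO units and 4 WT units, each the sum of 2 samples with the same unit number in their titles; libraries came from 1 to 2 animals, and age and sex are not given. No label ties the animals to the units, so p-values measure only the spread between these units, which may be partly technical.

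The KO units held 44524768, 38811489 and 56109143 estimated reads, and the WT units held 12851425, 20863157, 39214264 and 13458684. The values of low genes in WT units 1, 2 and 4 thus rest on fewer reads than those in KO units. Tln1 did not pass the test: it was at 788, 901 and 1014 CPM (reads scaled to the size of the library) in KO units 1 to 3, and at 634, 543, 847 and 649 CPM in WT units 1 to 4 (log2 fold change 0.43 ± 0.18 SE, edgeR adjusted p = 0.126). Its TPM (a level scaled by transcript length) was 139, 195 and 178 in KO units and 286, 63.7, 325 and 259 in WT units, so that WT unit 2 was the lowest of all and the other WT units lay above every KO unit. The sign of the difference thus depends on the scale: it was -0.09 once GC content and length were corrected for and -0.23 with limma on log2(TPM + 1), neither past the threshold. Which exons lie between the loxP sites is not given, and every direction below rests on the labels. Foxp3, which defines the sorted cells, was at 370, 514 and 401 CPM in KO units and at 468, 324, 478 and 406 CPM in WT units. Of 15775 genes tested, 2144 passed an FDR of 0.05 (13.6%), 1028 of them lower in KO (6.52%) and 1116 higher (7.07%); the total was 758 without WT unit 4, 977 without KO unit 3, 1122 without WT unit 2 and 1131 without KO unit 2. The median log2 fold change of all genes tested was 0.06. Markers of other blood cells stood higher in KO units: the summed TPM of 10 neutrophil markers was 725, 351 and 1010 in KO units, against 35.1, 3.85, 7.15 and 16.6 in WT units, with 8 of the 10 past the threshold.

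Of the 6 genes, Itgav and Itgb8 fell in KO units, none rose, and Itgb3, Itgb5, Lrrc32 and Furin did not pass the test. Those that fell are thus 2 of 6, where 6.52% of all genes tested fell. All 6 genes passed the filter on low counts. In CPM the KO and WT units did not overlap for 3 of the 6, Itgav, Itgb8 and Itgb5, beside 30.8% of all genes tested. That share was 14.1% with KO below WT and 16.7% with KO above WT. In TPM the groups overlapped for Itgb5. In a bulk sample, fewer cells that express a gene and less RNA of it per cell cannot be told apart.

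**Figure D1:**
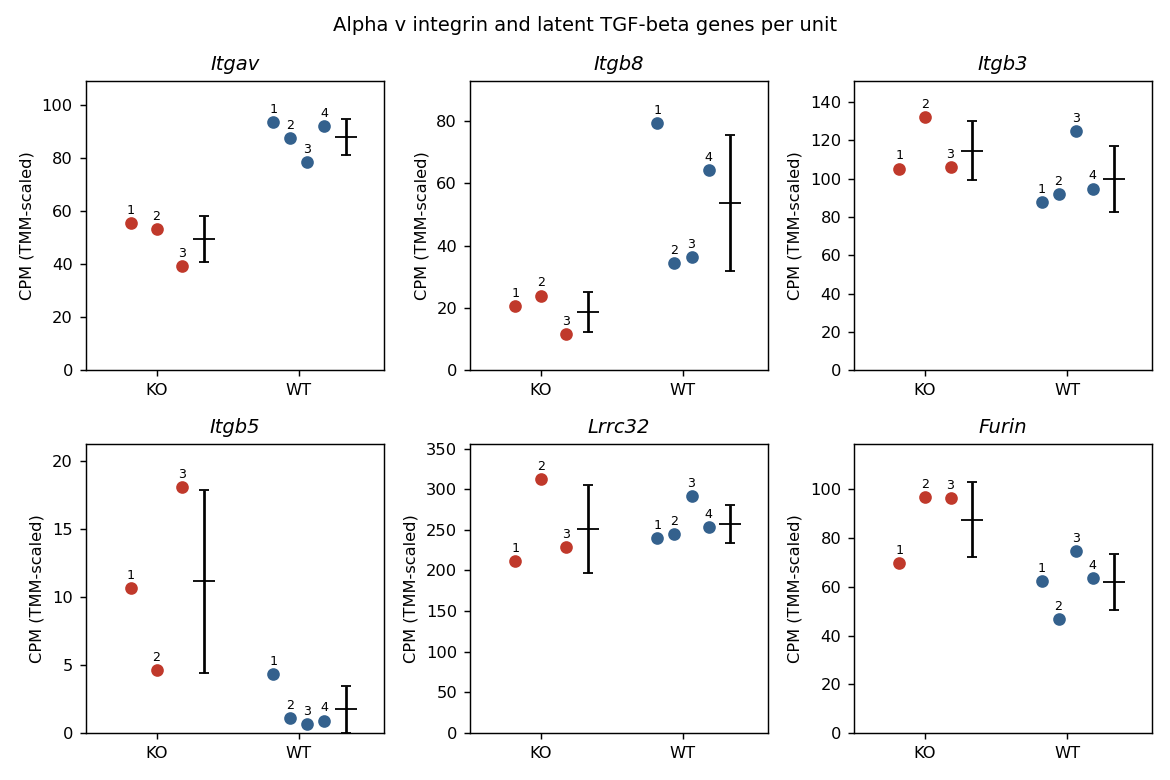
CPM of the 6 genes in each unit, with KO units left of WT units; points are units, numbered as in the titles, and bars are the mean ± SD over 3 KO and 4 WT units. The groups are apart for Itgav, Itgb8 and Itgb5 and overlap for Itgb3, Lrrc32 and Furin; each panel has its own axis, which starts at 0.

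Itgav (ENSMUSG00000027087; GRCm38 chr2:83724397-83806916, plus strand) encodes the alpha v chain, the partner that beta 3, beta 5 and beta 8 share. It was at 55.4, 53.3 and 39.4 CPM in KO units 1 to 3, and at 93.4, 87.3, 78.4 and 92.0 CPM in WT units 1 to 4. Every KO unit lay below every WT unit, and KO unit 3 was the lowest. The means were 49.4 ± 8.69 CPM in KO units and 87.8 ± 6.75 CPM in WT units (SD, n = 3 and 4), a 1.78-fold higher level in WT. The log2 fold change of -0.83 ± 0.15 (SE) passed the edgeR test (adjusted p = 0.00850), and it passed in each of the 7 fits that left out 1 unit. With limma on log2(TPM + 1) the call was lost (-0.77, adjusted p = 0.0505). The 2723 tested genes whose GC content lies within 2 percentage points of that of Itgav (43.6%) had a median log2 fold change of -0.26, and 8.48% of them were at or below the value of Itgav. With GC content and length corrected for, the fold change of Itgav was -0.72 (adjusted p = 0.00718). The span of Itgav overlaps those of Gm13684 and Dnmt3l-ps1 on the minus strand, and the library kit kept no strand. Of the 31-base words (runs of 31 bases) of its transcripts, 0% also occur in another gene on either strand. Reads shared with these genes were thus not shown.

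The Itgav reads came mostly from 2 long coding transcripts that differ by a pair of cassette exons. Itgav-201 (ENSMUST00000028499, 30 exons, 7054 bases) holds exons 5 and 6, at chr2:83761868-83761929 and chr2:83763652-83763697, and also starts further upstream in its exon 1. Itgav-202 (ENSMUST00000111740, 28 exons, 6788 bases) joins the neighbouring exons directly. The 108 bases lie inside the coding sequence and make up 36 codons, so the reading frame is kept. The sequences around the junction are shown because the cassette exons are a coding difference between the 2 transcripts; capitals mark exons 5 and 6, and the 20 lower-case bases on each side belong to the flanking exons (plus strand, GENCODE M21 transcripts on GRCm38).
Itgav-201: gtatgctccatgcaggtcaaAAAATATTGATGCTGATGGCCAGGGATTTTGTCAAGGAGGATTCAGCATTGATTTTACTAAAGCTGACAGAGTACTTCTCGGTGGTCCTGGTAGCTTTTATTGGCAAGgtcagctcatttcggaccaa
Itgav-202: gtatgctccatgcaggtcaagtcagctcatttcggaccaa

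Summed, the long transcripts were lower in KO units, at 6.16, 6.36 and 4.17 TPM, than in WT units, at 11.3, 9.75, 10.5 and 10.5 TPM, with no overlap. Itgav-202, without the 2 exons, was at 1.04, 2.83 and 1.74 TPM in KO units and at 9.24, 6.63, 5.86 and 5.75 TPM in WT units. All KO units lay below all WT units for it, as for 11.8% of the 33274 transcripts with a mean of at least 1 TPM. Itgav-201, with the 2 exons, was at 5.12, 3.53 and 2.43 TPM in KO units and at 2.02, 3.11, 4.68 and 4.74 TPM in WT units, and the groups overlapped. Itgav-202 held 16.3, 43.7 and 40.6% of the reads of both long transcripts in KO units, and 81.4, 67.3, 54.6 and 54.3% in WT units. As a share of all Itgav reads it was between 15.5 and 39.1% in KO units and between 50.7 and 75.9% in WT units, with KO below WT as for 7.76% of 28882 transcripts of genes with more than 1 transcript. Reads are divided between such transcripts by estimation, and the division was unsteady: the 2 samples of WT unit 4 gave shares of 34.0 and 73.4%, and those of KO unit 2 gave 34.5 and 53.0%. The drop of the gene did not need that division, since it was seen in the sum of the 2 transcripts. Transcripts shorter than 1000 bases held 33.8, 52.5 and 49.1% of the Itgav TPM in KO units and 37.4, 56.5, 44.3 and 36.9% in WT units, although they hold few reads, and the TPM of the gene is weighted toward them.

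**Figure D2:**
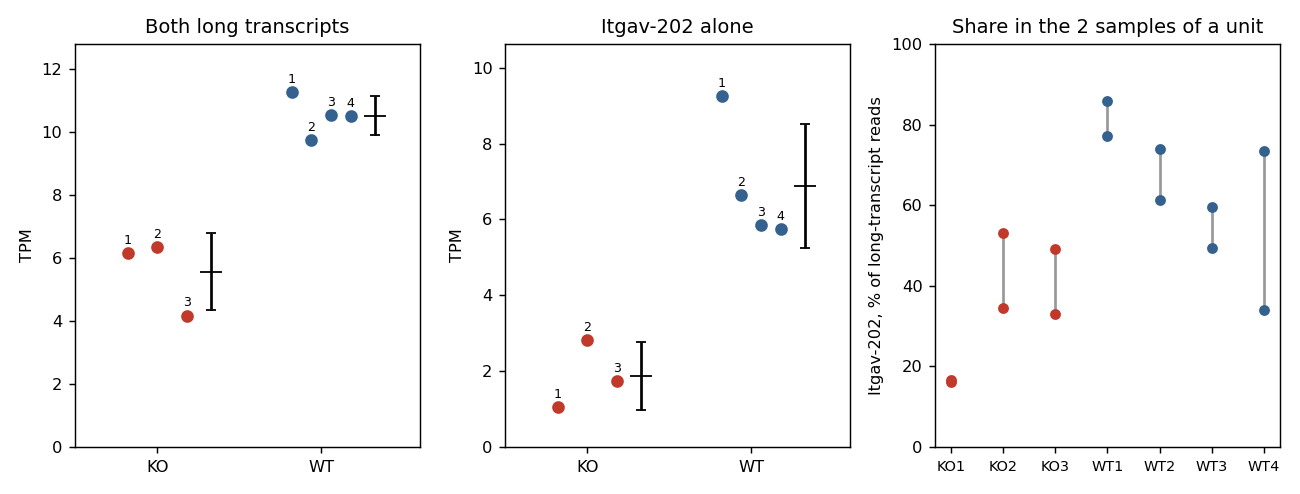
Left and middle, the summed TPM of Itgav-201 and Itgav-202 and the TPM of Itgav-202 alone in each unit. Bars are the mean ± SD over 3 KO and 4 WT units. Right, the share of Itgav-202 in the reads of both, with 1 point for each of the 2 samples of a unit. KO units are left of WT units. The groups are apart in the left and middle panels. In the right panel, the samples of WT unit 4 lie 39.4 percentage points apart.

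Itgb8 (ENSMUSG00000025321; GRCm38 chr12:119158022-119238802, minus strand) encodes beta 8, which pairs with alpha v alone and whose cytoplasmic tail differs from those of the other beta chains. It was at 20.5, 24.0 and 11.6 CPM in KO units and at 79.5, 34.5, 36.5 and 64.3 CPM in WT units. The groups did not overlap, but the WT units were spread widely, with units 1 and 4 far above units 2 and 3. The means were 18.7 ± 6.40 CPM in KO units and 53.7 ± 21.9 CPM in WT units (SD, n = 3 and 4), 2.87-fold higher in WT. The log2 fold change of -1.52 ± 0.39 (SE) passed the edgeR test narrowly (adjusted p = 0.0451). Leaving out any unit but WT unit 3 ended the call: adjusted p ran between 0.0505 without WT unit 2 and 0.118 without KO unit 3, with fold changes between -1.74 and -1.27. The call also ended with upper-quartile scaling (adjusted p = 0.0581), with no filter on low counts (0.0541) and with limma on log2(TPM + 1) (0.0839). Transcripts of Itgb8 have a GC content of 40.8%, and the 1741 tested genes within 2 points of it had a median log2 fold change of -0.42, with 22.2% of them called lower and 3.79% at or below the value of Itgb8. With GC content and length corrected for, Itgb8 was at -1.17 (adjusted p = 0.0148). The full-length coding transcript (ENSMUST00000026360) carried between 86.9 and 99.4% of the reads of the gene in every unit. Of 9 regulatory T cell markers, Cd3g, Ikzf2 and Il2ra also fell and none rose; the list summed to 2445, 2542 and 1782 TPM in KO units and to 2570, 2707, 3169 and 2641 TPM in WT units, and the part of the share of these cells in the Itgav and Itgb8 levels was not tested.

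Alpha v and beta 8 form the same receptor, so the ratio of their levels was compared as well. The TPM of Itgb8 over that of Itgav was 0.214, 0.191 and 0.149 in KO units and 0.490, 0.143, 0.226 and 0.381 in WT units. WT unit 2 had the lowest ratio of all, and the groups overlapped. The mean log2 ratio was -2.45 ± 0.27 in KO units and -1.84 ± 0.79 in WT units (SD), a difference of -0.61 that did not pass an exact permutation test (two-sided p = 0.286, where the 35 possible splits allow no p below 0.0571). A difference between the decline of Itgb8 and that of Itgav was thus not shown, and this p does not show that they declined alike. The TPM of Itgav includes short transcripts with few reads. With long transcripts alone the ratio was 0.306, 0.373 and 0.229 in KO units and 0.655, 0.344, 0.384 and 0.585 in WT units. KO unit 3 was then the lowest, and the groups still overlapped. The difference was -0.68 (exact permutation test, two-sided p = 0.114).

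Itgb3 (ENSMUSG00000020689; GRCm38 chr11:104608000-104670476, plus strand) encodes beta 3, which pairs with alpha v and, on platelets, with alpha IIb. It was at 105, 132 and 106 CPM in KO units and at 87.6, 91.8, 125 and 94.9 CPM in WT units. WT unit 3 lay among the KO units, so the groups overlapped. The log2 fold change was 0.20 ± 0.16 (SE; edgeR adjusted p = 0.416) and turned to -0.16 with GC content and length corrected for. The long coding transcript ENSMUST00000021028 carried at least 98.4% of the reads in every unit. Platelet markers beside it summed to between 17.4 and 21.2 TPM in KO units and between 7.77 and 13.5 TPM in WT units; their part in the Itgb3 level was not tested.

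Itgb5 (ENSMUSG00000022817; GRCm38 chr16:33829665-33949338, plus strand) encodes beta 5, which with alpha v binds vitronectin and is common in macrophages and stromal cells. It was at 10.7, 4.67 and 18.1 CPM in KO units, from 483, 183 and 1023 reads. In WT units it was at 4.33, 1.07, 0.674 and 0.914 CPM, from 55, 22, 27 and 12 reads. In CPM every KO unit lay above every WT unit, but WT unit 1 came close to KO unit 2. In TPM the groups overlapped, with WT unit 1 at 2.78 and KO unit 2 at 2.47. Short non-coding transcripts weigh in both values. Itgb5-203 held 57.5% of the TPM in WT unit 1 from 10.3 reads. Itgb5-204 held 42.3% of the TPM in KO unit 2 from 2.97 reads. At 2.71 ± 0.75 (SE), its log2 fold change missed the threshold of the edgeR test (adjusted p = 0.0512); without WT unit 1 it was 3.66 and passed (adjusted p = 0.00354), and it passed in 5 of 14 other alternatives. Of the 31-base words of Itgb5, 7.93% also occur in another gene, Gm38317, so a small part of its reads may be shared.

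Markers of some other cells stood in a similar order to Itgb5. The B cell, dendritic cell and cytotoxic lymphocyte sums did not. Among KO units they were lowest in KO unit 3, at 101.5, 21.9 and 49.6 TPM. Neutrophil markers, like Itgb5, were highest in KO unit 3 and, among WT units, in WT unit 1, at 1010 and 35.1 TPM. The 12 monocyte and macrophage markers summed to 391, 195 and 487 TPM in KO units and to 112, 16.5, 17.1 and 31.9 TPM in WT units, so that KO unit 3 was highest and WT unit 1 the highest of its group, as for Itgb5. WT units 2 to 4 stood in another order for these sums than for Itgb5. Of the monocyte and macrophage markers Spi1, Cd68 and Lyz2 passed the threshold, none was without reads in either group, and the median log2 fold change was 3.36. Erythroid markers summed to 386, 104 and 4604 TPM in KO units and to 74.8, 49.1, 4.33 and 19.2 TPM in WT units, with 0 of 8 past the threshold. Stromal and endothelial markers summed to 69.8, 94.4 and 63.2 TPM in KO units and to 70.7, 73.3, 101 and 69.1 TPM in WT units. The groups overlapped, with 1 of 6 tested, Pdgfrb, past the threshold and higher in KO units. Col3a1 and Cxcl12 had no reads in WT units and were not tested. The part of these cells in the Itgb5 level was not tested.

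**Figure D3:**
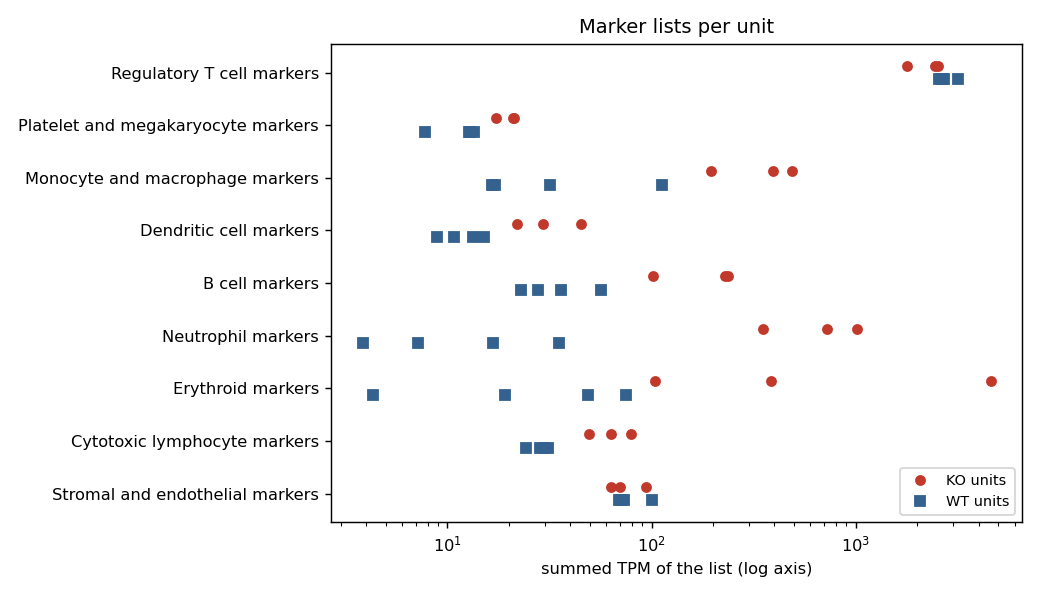
Summed TPM of each marker list in each unit on a log axis, with KO units drawn above WT units in each row. The regulatory T cell list is highest in most units (1782 to 2542 TPM in KO units and 2570 to 3169 TPM in WT units), and the lists of neutrophils, monocytes and B cells are higher in all KO units than in all WT units.

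Lrrc32 (ENSMUSG00000090958; GRCm38 chr7:98489283-98502181, plus strand) encodes GARP, the anchor of latent TGF-beta on regulatory T cells and platelets. It was at 212, 312 and 229 CPM in KO units and at 240, 245, 292 and 254 CPM in WT units. KO units held both the highest and the lowest value. The means were 251 ± 53.8 CPM in KO units and 258 ± 23.4 CPM in WT units (SD, n = 3 and 4), and the log2 fold change was -0.04 ± 0.16 (SE; edgeR adjusted p = 0.889). The 2484 tested genes within 2 points of its GC content (57.1%) had a median of 0.36. With GC content and length corrected for, Lrrc32 was at -0.51 and passed (edgeR adjusted p = 0.0470). It did not pass when the unit number was also a term of that fit (adjusted p = 0.172). The cause of this shift was not tested.

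Furin (ENSMUSG00000030530; GRCm38 chr7:80388585-80405436, minus strand) encodes the convertase that cuts the TGF-beta proprotein. It was at 69.7, 97.0 and 96.3 CPM in KO units and at 62.3, 46.8, 74.7 and 63.8 CPM in WT units. KO unit 1 lay below WT unit 3, and the other KO units lay above all WT units. Its log2 fold change was 0.50 ± 0.18 (SE) and missed the threshold (edgeR adjusted p = 0.0824). The 2025 tested genes of like GC content (within 2 points of 58.0%) had a median of 0.39, and the corrected value was -0.01. The span of Furin overlaps that of the antisense gene Gm44851, and the library was unstranded. Of the 31-base words of Furin, 2.18% also occur in other genes, with Kctd3, Dnajb14 and Washc4 sharing the most. A small part of its reads may thus be shared.

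**Figure D4:**
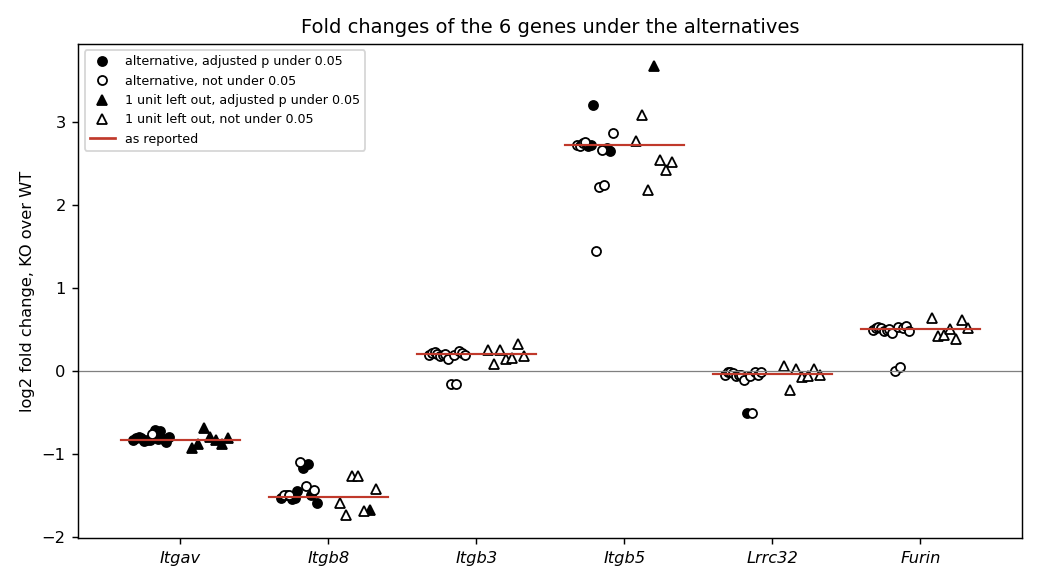
Log2 fold change, KO over WT, of the 6 genes as reported (line), under 14 alternatives in processing (circles) and with 1 unit left out in turn (triangles); filled symbols have an adjusted p under 0.05. Itgav and Itgb8 stay below 0 and Itgb5 above 0 in all of them, Itgb3, Lrrc32 and Furin have values on both sides of 0, and the Itgb8 and Itgb5 symbols are partly filled.

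Levels between genes were compared as TPM, which is scaled by length. In KO units the order was Lrrc32 at 57.8 ± 17.1 TPM, Furin at 19.8 ± 4.74, Itgb3 at 17.0 ± 3.68, Itgav at 11.9 ± 3.56, Itgb5 at 3.91 ± 1.98 and Itgb8 at 2.22 ± 0.82 TPM (SD, n = 3). Of the neighbours in that order, Furin and Itgb3, Itgb3 and Itgav, and Itgb5 and Itgb8 overlapped. In WT units it was Lrrc32 at 61.3 ± 10.1 TPM, Itgav at 20.5 ± 2.33, Itgb3 at 15.5 ± 3.89, Furin at 14.1 ± 3.23, Itgb8 at 6.18 ± 2.89 and Itgb5 at 0.934 ± 1.23 TPM (SD, n = 4). There Itgav and Itgb3, and Itgb3 and Furin, overlapped. The anchor GARP thus had the highest message of the 6 in both groups. Itgav stood lower in the order in KO units than in WT units, but its TPM is weighted toward short transcripts. Its 2 long transcripts alone summed to 5.56 ± 1.21 TPM in KO units and 10.5 ± 0.62 TPM in WT units (SD). That sum lay below Itgb3 and below Furin in every unit of both groups. Itgb8 stood above Itgb5 in all WT units, while in KO units their ranges overlapped.

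The rest of the pathway was read from 8 lists of 61 genes, of which 50 could be tested. In KO units 10 of the 50 rose (20%, beside 7.07% of all genes tested) and 1 fell (2%, beside 6.52%), 39 did not pass, and the median log2 fold change was 0.19, beside 0.06 for all genes. Of the 10 that rose, 6 had a mean of less than 15 CPM in KO units. B cell, dendritic cell and cytotoxic lymphocyte markers also moved with the groups, with 7 of 10, 5 of 10 and 4 of 9 past the threshold, all higher, and their part in the pathway genes was not tested.

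Of the 3 TGF-beta ligand genes tested, none passed. Tgfb1, the form made by T cells, was at 83.4, 98.1 and 114 CPM in KO units and at 72.2, 91.6, 98.5 and 80.0 CPM in WT units. The groups overlapped (0.20 ± 0.15 SE, edgeR adjusted p = 0.397), and the value was -0.25 with GC content and length corrected for. Tgfb3, another isoform, was low, at 1.93 ± 0.06 CPM in KO units and 1.39 ± 0.33 CPM in WT units, and did not pass (0.46 ± 0.38 SE, adjusted p = 0.444).

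Among the 7 tested anchors and chaperones of latent TGF-beta, Nrros was the member that rose. Nrros encodes an anchor akin to GARP that is known from macrophages and microglia. It was at 119, 117 and 119 CPM in KO units and at 68.7, 86.1, 85.0 and 73.8 CPM in WT units. The KO units lay close together above all WT units (0.60 ± 0.12 SE, edgeR adjusted p = 0.0149). The call ended without WT unit 4 (adjusted p = 0.0548), with limma on log2(TPM + 1) (0.0683), and with GC content and length corrected for, where the value was 0.22 (adjusted p = 0.231).

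None of the 6 tested convertases other than Furin passed. Pcsk7, which cleaves after basic residues like furin, was at 71.6 ± 6.42 CPM in KO units and 53.7 ± 7.47 CPM in WT units (0.41 ± 0.14 SE, edgeR adjusted p = 0.0724), and passed without WT unit 3 (0.50, adjusted p = 0.0473). Mbtps1, the site-1 protease, was at 184 ± 15.6 CPM in KO units and 170 ± 16.4 CPM in WT units (0.12 ± 0.13 SE, adjusted p = 0.569).

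Of 8 tested genes for other activators of latent TGF-beta, 4 rose and none fell, with a median log2 fold change of 1.89; all 4 were low in WT units. Thbs1 encodes thrombospondin-1, which binds the propeptide, and was at 3.39, 3.16 and 5.03 CPM in KO units and at 0.315, 0.195, 0.524 and 1.07 CPM in WT units (2.90 ± 0.55 SE, edgeR adjusted p = 0.0107). Mmp9, a gelatinase abundant in neutrophils, was at 9.12, 5.92 and 9.72 CPM in KO units and at 2.52, 2.00, 2.60 and 1.37 CPM in WT units (1.95 ± 0.33, adjusted p = 0.00736), and lost its call with limma on log2(TPM + 1), at 0.94 (adjusted p = 0.0914). Plaur, the urokinase receptor, was at 6.42, 9.75 and 7.10 CPM in KO units and at 1.57, 1.51, 1.40 and 1.68 CPM in WT units (2.33 ± 0.30, adjusted p = 0.00196). The groups were apart for these and for Bmp1, a protease that cuts matrix proteins. Bmp1 was at 1.15, 1.28 and 4.69 CPM in KO units and at no more than 0.315 CPM in WT units (4.03 ± 0.87, adjusted p = 0.0179), and lost its call without KO unit 3 (adjusted p = 0.0946) or WT unit 4 (0.0511), and with limma-voom (0.0514).

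Among 4 tested partner and RGD-binding chains, Itga5 and Itga2b rose. Itga5, the alpha chain of the fibronectin receptor, was at 22.6, 25.0 and 32.0 CPM in KO units and at 12.7, 11.7, 17.0 and 11.4 CPM in WT units, with no overlap (1.01 ± 0.21 SE, edgeR adjusted p = 0.0151). It did not pass without WT unit 4 (adjusted p = 0.0518), with limma on log2(TPM + 1) (0.0679) or with GC content and length corrected for (0.51, adjusted p = 0.0628). Itga2b, the platelet partner of beta 3, was at 13.6 ± 2.30 CPM in KO units and 4.27 ± 0.50 CPM in WT units, also with no overlap (1.68 ± 0.24, adjusted p = 0.00348), and did not pass with limma on log2(TPM + 1), at 0.66 (adjusted p = 0.216). Itgb1, whose product can pair with alpha v too and which is named here after its values were seen, was at 197 ± 34.6 CPM in KO units and 288 ± 41.1 CPM in WT units and did not pass (-0.55 ± 0.17, adjusted p = 0.0556).

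Of 3 tested RGD ligands, Fn1, which encodes fibronectin, rose. It was at 28.2, 28.6 and 48.9 CPM in KO units and at 5.51, 2.10, 2.02 and 2.67 CPM in WT units. All KO units were far above all WT units (3.54 ± 0.39 SE, edgeR adjusted p = 0.00143). Vtn and Fbln5, which encode vitronectin and fibulin-5, had no reads in WT units and were not tested.

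Of 12 tested receptors and SMADs, which carry the TGF-beta signal to the nucleus, 2 rose, none fell, and the median was 0.01. Eng, an accessory receptor of endothelial cells and macrophages, was at 6.53, 5.16 and 29.3 CPM in KO units and at 1.26, 1.47, 0.749 and 0.229 CPM in WT units (3.87 ± 0.80 SE, edgeR adjusted p = 0.0248). It did not pass when any WT unit was left out (adjusted p between 0.0523 and 0.0594) or with limma-voom (0.0697), and its high value in KO unit 3 stands beside that unit's high erythroid and monocyte marker sums, whose part was not tested. Tgfbr3, an accessory receptor that presents TGF-beta, was at 42.7, 41.9 and 33.6 CPM in KO units and at 22.7, 29.7, 27.4 and 29.7 CPM in WT units (0.53 ± 0.15, adjusted p = 0.0468). Its call held in 1 of the 7 fits that left out a unit, that without KO unit 3; the highest adjusted p was 0.134, without KO unit 1. It also ended with GC content and length corrected for (0.33, adjusted p = 0.227), with DESeq2 size factors (0.0518), with no filter (0.0593), with limma-voom (0.0532) and with limma on log2(TPM + 1) (0.224).

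Of 9 tested genes that TGF-beta is known to regulate in T cells, 1 fell, none rose, and the median was -0.29. It was Itgae, the CD103 alpha chain, which pairs with beta 7, binds E-cadherin and is induced by TGF-beta. Itgae was at 12.8, 16.3 and 11.1 CPM in KO units and at 34.1, 34.0, 26.9 and 30.7 CPM in WT units. The highest KO unit lay well below the lowest WT unit (-1.23 ± 0.19 SE, edgeR adjusted p = 0.00442). The call held in all 7 fits that left out a unit and in all 14 other alternatives.

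**Figure D5:**
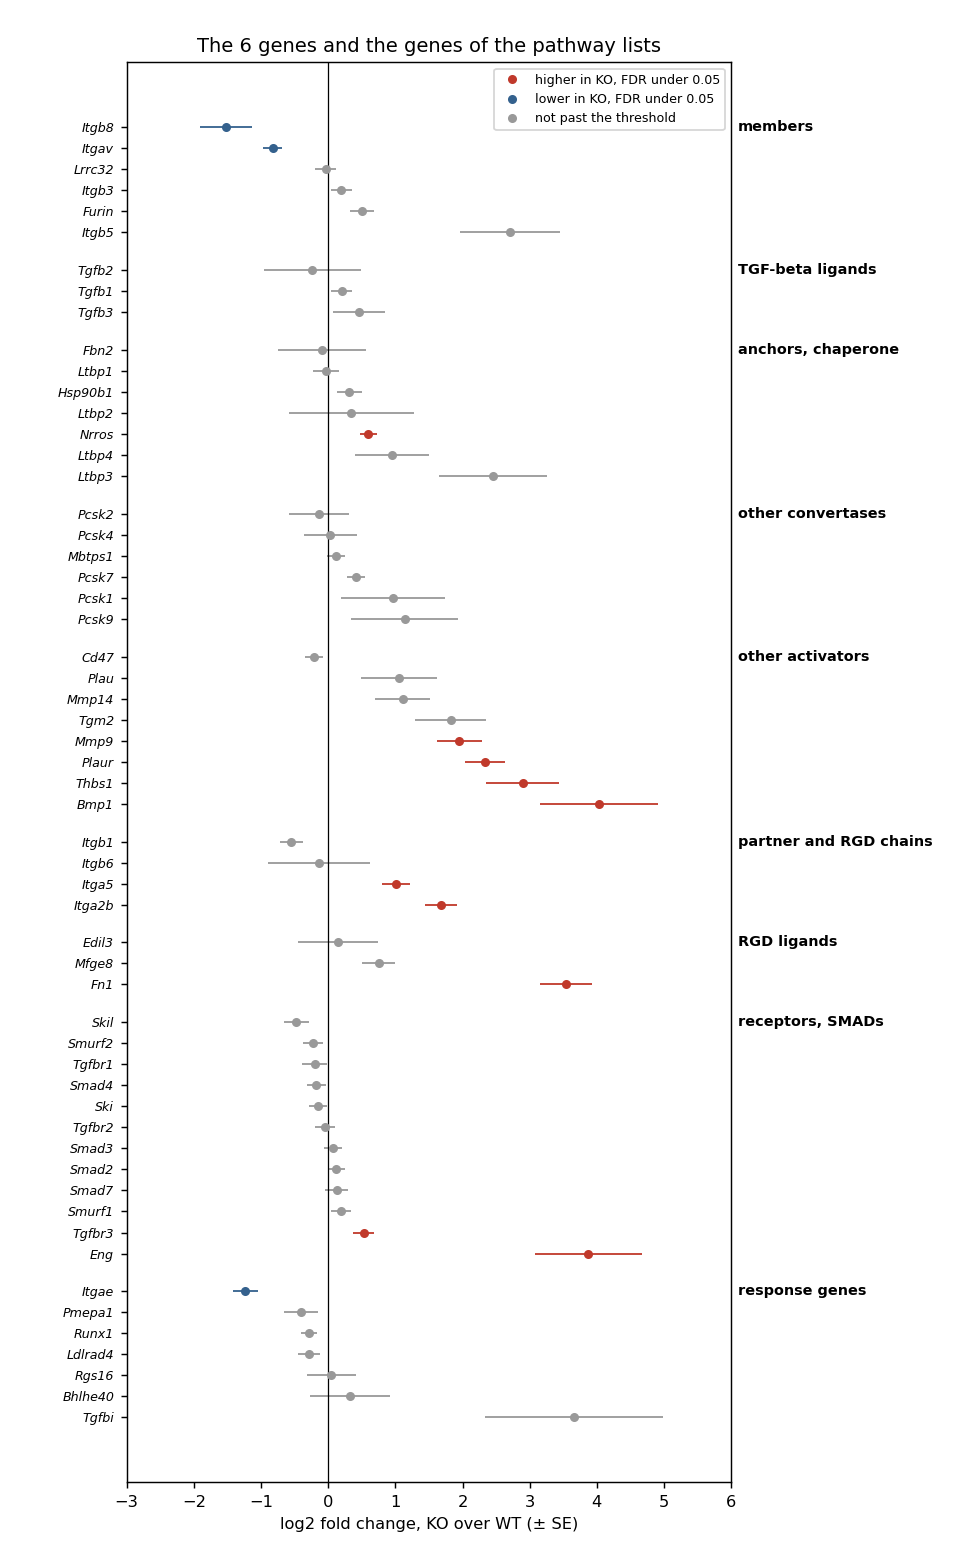
Log2 fold change, KO over WT, with its SE, for the 6 genes and the tested genes of the 8 pathway lists, coloured by whether the edgeR test was passed. Itgav, Itgb8 and Itgae lie to the left past the threshold, and 10 genes to the right, among which Bmp1, Eng, Fn1 and Thbs1 lie farthest out.

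The genes most like each of the 6 were sought by Pearson's r of log2 CPM over the 7 units among 8854 protein-coding genes with a mean of at least 10 CPM. These values describe units that fall into 2 groups, so a gene that differs between the groups finds many others with a high r. For Itgav they were Zfp932 (r = 0.998), Trim34a (0.997) and Strn3 (0.996), and for Itgb8 they were Rbm25 (0.997), Slc5a3 (0.994) and Tubgcp4 (0.993). For Itgb5 they were Slc45a3 (0.993), Apoe (0.991) and Ccdc88a (0.989). Itgb3 was most like Map2k7 (0.989), Adar (0.982) and Rapgef1 (0.966), and those named for Furin were Gse1 (0.997) and Rai1 (0.989). Lrrc32 had no gene as close, with Acap1 (0.931), Alkbh6 (0.921) and Fmnl3 (0.918) at the top. The 6 genes themselves were left out of the search.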

How the data were processed

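The expected counts (estimated reads per transcript, not whole numbers) and TPM values in the 14 tables were deposited by the authors; they come from kallisto run against GRCm38, per the submitters' processing notes, and no version of kallisto is named. The other columns deposited by the authors, transcript length and effective length, were identical in the 14 tables. The libraries were non-stranded, per the labels' protocols. Transcripts (88198) were matched to GENCODE genes of GRCm38; 2079 found no gene and held 1.17 to 1.28% of the reads, and the counts of the others were summed over 30284 genes. The 2 samples of a unit differed little more than sampling noise (chi-square per degree of freedom 1.44 to 1.90, against 12.8 to 202 between units of a group), so their counts were summed and rounded; TPM was averaged.

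Genes were tested with edgeR 4.0.16 in R 4.3.3 (TMM, filterByExpr, robust quasi-likelihood fit, group as the only term, Benjamini-Hochberg adjustment over the 15775 genes tested, FDR 0.05). CPM is scaled to the library size after TMM, and the SE of a log2 fold change comes from the F statistic. The step was tested on simulated counts of 15775 genes for this comparison. Of 100 genes changed 2-fold 36% were called, and of 100 genes changed 4-fold 72% were called. Changed genes were drawn only from genes above a set mean count, so these shares do not cover lower genes. Unchanged genes made up 10% of the 120 calls, which is above the FDR of 0.05, so narrow calls are less certain than that threshold. The ratio was tested by exact permutation. Alternatives were DESeq2 1.42.0 (size factors; Wald test), other scalings and filters, limma 3.58.1 (voom; log2(TPM + 1)), a GC and length offset, a replicate block, thinning to the shallowest unit, each sample of a unit alone, and leaving out each unit. The numbers shared by KO and WT units were checked for pairing: deviations of same-numbered units correlated at 0.01, -0.19 and -0.06. Those of differently numbered units ran between -0.25 and 0.26. Pairing by number was thus not shown, and so few pairs cannot exclude it.

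The 6 genes and the lists were chosen with earlier results of these data known. Genes named are the 6, in each list those past the threshold or otherwise the 2 of highest TPM, Tln1, and the 3 genes most like each of the 6; a gene that this rule takes and a count of platelet markers are not reported here. Protein sequences are not used here.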

Additional observations from a re-analysis of the deposited data

Results flagged for a closer look

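Among 23 groups of 4 WT values examined with Dixon's test, 4 had a unit far from the other 3; chance flags about 1 in 20 such groups. Itgb5 in WT unit 1 was at 4.33 CPM, where the other WT units lay between 0.674 and 1.07 CPM, and at 2.78 TPM, where they lay between 0.274 and 0.383 TPM. Itgb3 in WT unit 3 was at 21.3 TPM, with the others between 13.2 and 13.9 TPM, and Lrrc32 in the same unit was at 76.2 TPM, with the others between 54.3 and 57.5 TPM. Groups of 3 KO units were not examined.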

How the results depend on the processing

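Itgav kept its call in 13 of 14 alternatives and in all 7 fits without a unit (-0.93 to -0.69); with limma on log2(TPM + 1) it was -0.77 (adjusted p = 0.0505). Itgb8 lost its call with upper-quartile scaling (-1.50), no filter (-1.50), limma on log2(TPM + 1) (-1.10) and the first sample of each unit alone (-1.44); without a unit it ran between -1.74 and -1.27. Itgb5 was past the threshold with a stricter filter (2.71, adjusted p = 0.0498), the DESeq2 Wald test (2.71), limma-voom (3.20), equal depth (2.68) and the first samples alone (2.65), and ran between 2.17 and 3.66 without a unit. The GC and length offset moved the median of all genes to -0.11 and called 689 genes higher and 1057 lower of 1746, against 1116 and 1028 as reported; it turned Itgb3 to -0.16, Furin to -0.0084 and Lrrc32 to -0.51 (past the threshold), and, of the genes named beside them, Tln1 to -0.094, Tgfb1 to -0.25, Mbtps1 to -0.22 and Pcsk7 to -0.028. Without a unit, Itgb3 ran between 0.08 and 0.32, Lrrc32 between -0.23 and 0.061 and Furin between 0.39 and 0.64. Tln1 was -0.23 with limma on log2(TPM + 1).

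The total of genes called was 3576 with the DESeq2 Wald test, 1162 with limma on log2(TPM + 1) and between 758 and 1905 without a unit; without KO unit 2 it split into 722 higher and 409 lower. With the replicate block it was 612, with Itgav at -0.82 and past the threshold (adjusted p = 0.031) and Itgb8 at -1.39 and not (0.0714), and the calls of Nrros, Mmp9, Bmp1, Itga5, Eng and Tgfbr3 ended (adjusted p between 0.0539 and 0.13); with the block and the GC and length offset it was 611, with Itgav at -0.73 and Itgb8 at -1.12 past the threshold (adjusted p = 0.0353 and 0.0211), Lrrc32 at -0.51 and not past it (0.172), Itgb3 at -0.16, Tln1 at -0.10, Tgfb1 at -0.25, Mbtps1 at -0.24 and Pcsk7 at -0.036. The cause of these changes was not tested. The log2 ratio difference of Itgb8 to Itgav stayed between -0.93 and -0.34. Itgb5 had 12 to 55 reads in WT units.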
